A study of Mus musculus with 8 samples.

Results

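The 40 genes described here encode enzymes of branched-chain, serine, one-carbon, sulphur, glutamine, proline and urea metabolism, amino acid transporters, and the transcription factor Atf4 with genes that respond to it. They are a list of gene names, drawn up with earlier results of these data known. On the arrays 38 of the 40 had a probe set that names the gene alone, out of 22180 genes in all, and Gls2 and Pycr1 were not analysed here. Expression was measured once in each of 8 untreated clonal lines from C57BL/6 mice, kept in DMEM with 10% fetal calf serum under 7.5% CO2. All 8 lines came from liver tumours driven by c-Myc and NrasG12V on the pCaMIN vector, which both groups share. Intrahepatic cholangiocarcinoma (ICC), a liver cancer that resembles bile duct, followed focal in vivo electroporation and gave 4 lines. Hepatocellular carcinoma (HCC), which resembles hepatocytes, followed hydrodynamic tail-vein injection and gave the other 4, so the type of tumour and the way the vector was delivered cannot be told apart.

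Each type holds a pair of male-labelled and a pair of female-labelled lines. The male ICC pair is ICC2.7 and ICC2.9, the male HCC pair HCC1 and HCC4, the female ICC pair ICC9 and ICC10, and the female HCC pair HCC2.1 and HCC2.4, and values of a pair are given in that order. Each line is 1 clone, and the labels used here do not say whether lines of a pair share an animal or tumour, nor the age of the mice. The p-values therefore measure only the spread between these lines. A difference by sex also cannot be told apart from a difference between 4 sources of cells.

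The labels for sex held in every line: Xist, the RNA that silences an X chromosome, lay between 11.26 and 11.59 log2 units in female-labelled lines and between 4.02 and 4.64 in male-labelled lines, and the Y-linked genes Kdm5d, Eif2s3y and Uty separated them in the opposite direction. Of 11 measured hepatocyte markers 2 (Apoa2 and Hnf4a) had a mean above the median gene level of 5.66, and albumin (Alb) had a mean of 4.30. Of 6 bile duct markers 3 did (Sox9, Krt19 and Krt7), of 7 leukocyte markers 1 (Cd68) and of 5 endothelial markers 0. Among 7 fibroblast and stellate markers 4 did (Pdgfrb, Col1a1, Acta2 and Col1a2), and all 13 measured proliferation markers did. Array medians lay between 5.62 and 5.68. The 8 columns of values span only 7 directions, and ICC9 carries the largest weight in the missing one. For the 38 members ICC9 equalled a weighted sum of the other 7 lines to within 0.0075 log2 units, with ICC10 weighted 0.688. The deposited values are therefore not 8 independent sets, how this arose was not tested, and counts are also given without ICC9 and with the missing direction as a covariate. The deposited values have almost no part along that direction, so the covariate could not move the estimates and does not check them. The members' median differences stayed at 0.27 log2 units by type and -0.69 by sex. What the covariate changed was the residual degrees of freedom, from 6 to 5 by type and from 5 to 4 by sex. Unless stated, SEs and adjusted p-values by type and sex come from fits without it, so they understate the error. The 4 arrays per group limit the precision.

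Cells short of amino acids, or under other stresses that lead to phosphorylation of the initiation factor eIF2, translate less of most mRNAs but more of Atf4. ATF4 then binds DNA with partners of the C/EBP family and raises genes for amino acid synthesis, uptake and tRNA charging, among them Asns, Psat1, Shmt2, Mthfd2, Slc7a5, Slc7a11, Chac1, Trib3 and Ddit3. In the normal liver the urea cycle, which turns ammonia into urea, is a hallmark of hepatocytes, and the transamination of branched-chain amino acids takes place mostly in other tissues.

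The element that ATF4 and C/EBP proteins bind together was searched as TGATGNAA on both strands, in RefSeq windows (GRCm38.p6) of 300 bases, 250 before and 50 after each gene's start. Windows were found for 31 of the 38 measured members. The letters occurred in 6 of these 31 genes (19.35%), against 1219 of 27025 genes (4.51%) in the whole table and 11 of 94 (11.7%) among other genes of the same pathways, without a test. Asns, Chac1 and Slc1a4 were among the 17 members with a window that were lower in female-labelled lines, as described further on, and Got1, Slc7a11 and Trib3 were among the 14 that did not pass that test. A match is a string of letters and not a mapped site. Shown here are the 7 matches of these 6 genes, each turned so that the element, in capitals, reads 5′ to 3′, to let the bases around it be compared.
Asns, chr6:7693215-7693242: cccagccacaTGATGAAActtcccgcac
Chac1, chr2:119351039-119351066: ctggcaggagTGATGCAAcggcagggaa
Got1, chr19:43524690-43524717: gaggcttgtaTGATGCAAccaatgcaat
Slc1a4, chr11:20332700-20332727: aggctggagaTGATGCAAcgcaggaggc
Slc7a11, chr3:50443662-50443689: ctcatgtggcTGATGCAAacctggagaa
Slc7a11, chr3:50443643-50443670: ggctgcatgaTGATGCAAattctccagg
Trib3, chr2:152344029-152344056: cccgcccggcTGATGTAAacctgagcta

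Asns and the first Slc7a11 window are on the strand of the gene and the others on the opposite strand. Counted from the start of the gene, the match begins at -23 in Asns, at -66 and -47 in Slc7a11, at -193 in Chac1, at -102 in Got1, at -4 in Slc1a4, where it runs over the start, and at 14 in Trib3. The 250 bases before the start of Asns (chr6:7693210-7693459, minus strand), Slc7a11 (chr3:50443614-50443863, minus strand) and Chac1 (chr2:119350992-119351241, plus strand) are shown because these genes make asparagine, import cystine and break down glutathione. They are printed on the strand of the gene, with matches in capitals (reverse complement where the match is on the other strand).
Asns: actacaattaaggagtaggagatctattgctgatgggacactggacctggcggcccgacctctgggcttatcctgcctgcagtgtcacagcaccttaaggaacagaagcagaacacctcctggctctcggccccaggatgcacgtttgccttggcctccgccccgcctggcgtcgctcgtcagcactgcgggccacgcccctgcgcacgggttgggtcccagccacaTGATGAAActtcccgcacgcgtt
Slc7a11: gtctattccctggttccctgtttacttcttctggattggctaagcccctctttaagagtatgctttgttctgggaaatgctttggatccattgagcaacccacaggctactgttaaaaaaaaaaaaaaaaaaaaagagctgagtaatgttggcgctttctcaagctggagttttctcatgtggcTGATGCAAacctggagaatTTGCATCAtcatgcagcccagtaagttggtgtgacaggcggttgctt
Chac1: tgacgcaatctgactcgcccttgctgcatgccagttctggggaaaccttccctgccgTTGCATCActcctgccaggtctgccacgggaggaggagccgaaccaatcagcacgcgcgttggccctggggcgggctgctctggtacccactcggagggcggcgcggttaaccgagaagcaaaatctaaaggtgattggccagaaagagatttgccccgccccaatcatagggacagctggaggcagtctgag

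The members varied widely between the lines. The range over the 8 lines, highest minus lowest, had a median of 1.25 log2 units over the 38 members and 0.57 over all genes. It reached 1 log2 unit in 21 members (55.26%) against 16.24% of all genes, and 2 units in 8 members (21.05%) against 2.98%. Slc7a11, the cystine and glutamate exchanger, spanned 3.05 units (8.28-fold), Cth, which releases cysteine from cystathionine, 2.84 (7.16-fold) and Bcat1, the cytosolic branched-chain aminotransferase, 2.78 (6.87-fold). Got2, the mitochondrial aspartate aminotransferase, spanned 0.29 and Bckdha, a subunit of the branched-chain ketoacid dehydrogenase, 0.32. The highest value lay in ICC2.7 or ICC2.9 for 15 and 9 members, and the lowest in HCC2.1 or HCC2.4 for 18 and 7.

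**Figure D1:**
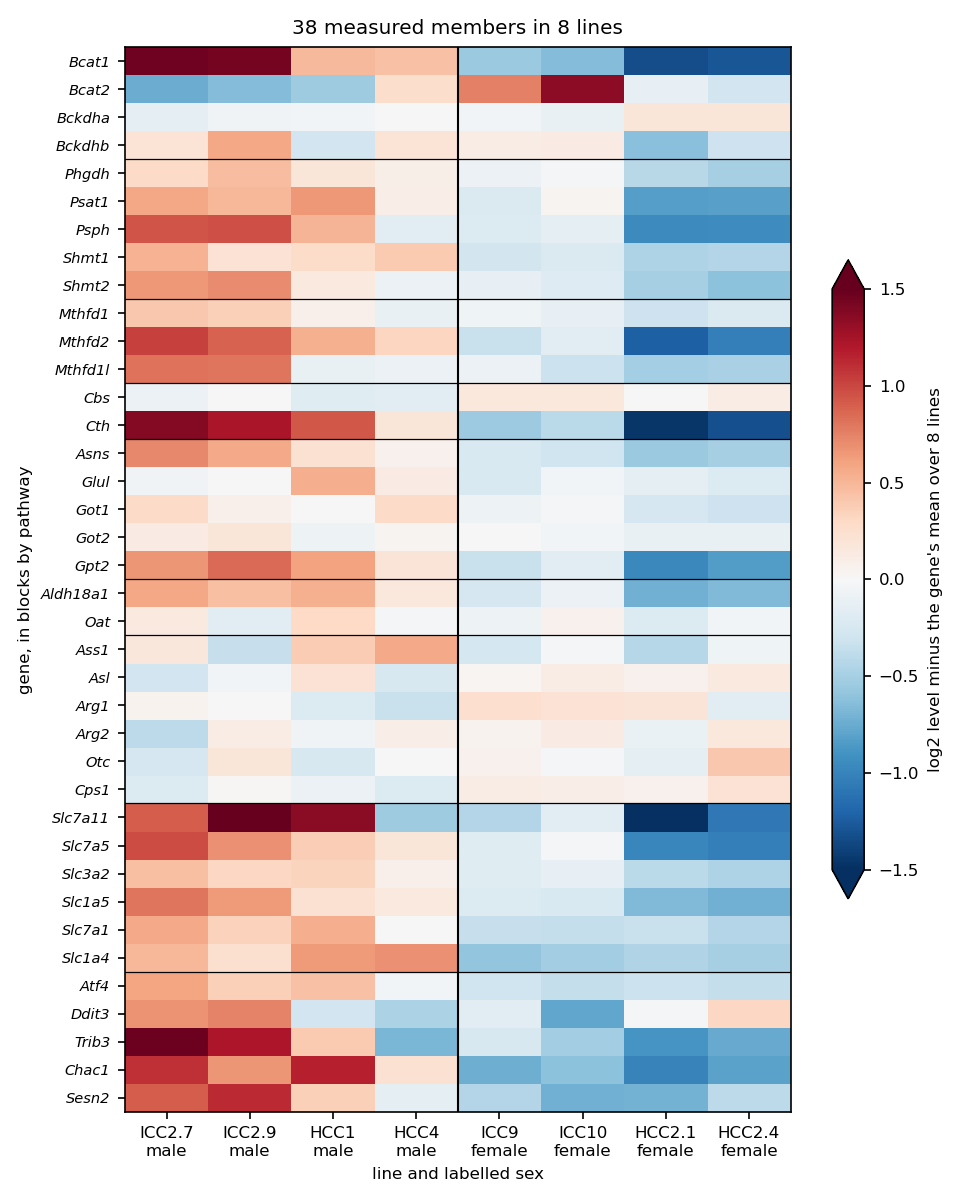
Heat map of the log2 level of each of the 38 measured members (rows, in blocks by pathway) in each of the 8 lines (columns, male-labelled to the left of the vertical line), as the difference from the gene's own mean over the lines; colours saturate at 1.5 log2 units. Most rows run from high in ICC2.7 and ICC2.9 to low in HCC2.1 and HCC2.4, while the urea cycle block varies less.

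Between ICC and HCC lines no member passed the test. Limma, fitted over all 22180 genes with no covariate, called 0 of 38 members at an adjusted p under 0.05, where 0.261% of all genes were called, and 1 member had an unadjusted p under 0.05, against 14.1% of all genes. The difference was above 0 in 30 of the 38, with a median of 0.27 log2 units against 0.00 over all genes, and in 0 of 38 did the 4 ICC lines lie apart from the 4 HCC lines, against 8.63% of all genes (4.19% higher and 4.44% lower in ICC). The smallest p was that of Bckdhb, the other E1 subunit of the branched-chain ketoacid dehydrogenase, at 7.46 and 7.83 in the male ICC pair, 6.96 and 7.46 in the male HCC pair, 7.36 and 7.38 in the female ICC pair, and 6.62 and 6.94 in the female HCC pair (log2 difference 0.51, SE 0.18, adjusted p = 0.261). Bckdhb was lowest in HCC2.1, and the types overlapped, since HCC4 reached 7.46.

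Sex is balanced over the types, and with sex in the model the same differences met a smaller error. Limma then called 7 of 38 members (1.93% of all genes), each higher in ICC lines. They were Bcat1 (log2 difference 0.84, SE 0.09, adjusted p = 0.00772), Slc1a5, a transporter of glutamine and other neutral amino acids (0.51, SE 0.07, adjusted p = 0.0205), Slc7a5, which carries large neutral amino acids (0.73, SE 0.11, adjusted p = 0.0246), and the mitochondrial folate enzyme Mthfd2 (0.70, SE 0.11, adjusted p = 0.0259). Psph, the last enzyme of serine synthesis, differed by 0.78 (SE 0.14, adjusted p = 0.036), Shmt2, the mitochondrial serine hydroxymethyltransferase, by 0.53 (SE 0.09, adjusted p = 0.0372) and Cth by 0.84 (SE 0.16, adjusted p = 0.0443). With sex and the missing direction as covariates 1 of the 38 was called, Bcat1 (adjusted p = 0.0303; 0.537% of all genes), and with the lines of a pair as a random block 0 were. In the female-labelled lines alone limma called 7 of 38, all higher in ICC (3.14% of all genes), and in the male-labelled lines alone 1, Ddit3 (0.902%). Part of the error in the female-labelled fit is the gap between ICC9 and ICC10, and that fit was not run with the missing direction. The proliferation markers moved with type too: all 13 measured had a positive difference, the list mean lay between 8.89 and 9.47 in ICC and between 7.90 and 8.80 in HCC lines, and their part in these differences was not tested.

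Lines labelled female had lower levels of much of the list than lines labelled male. With tumour type in the model limma called 20 of 38 members, all 20 lower in female-labelled lines. Of all genes 2.94% were called, 1.47% lower and 1.48% higher. The median difference was -0.69 log2 units over the members and 0.01 over all genes, and 29 members had an unadjusted p under 0.05 (17.5% of all genes). With the missing direction as a covariate 13 of 38 members were called, against 1.26% of all genes. Most members are bright, with 32 of 38 above the median gene level, and how calls in this fit depend on level was not counted. Fitted to the 11087 genes above the median level alone, limma called 858 of them, and 23 of the 32 members there. All 4 female-labelled lines lay below all 4 male-labelled lines in 19 members, against 4.35% of all genes, and above them in 1, Cps1, against 4.41%. Of the 20 called members 18 did not overlap, the exceptions being Psph and Mthfd1l. The female-minus-male difference had the same negative sign within ICC and within HCC in 28 of the 38, and the share of all genes that do so was not counted. Over all 8 lines it was negative in 30 of the 38 and in 10798 of 22180 genes.

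The pairs also followed an order. Both lines of the female HCC pair lay below the other 6 lines in 22 of 38 members, against 7.47% of all genes, and both lines of the male ICC pair lay above the other 6 in 16 members, against 11.2%. In 9 members the 4 pairs followed each other without overlap from male ICC through male HCC and female ICC to female HCC, against 0.487% of all genes. Which of these orders was counted was chosen after the values were seen.

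**Figure D2:**
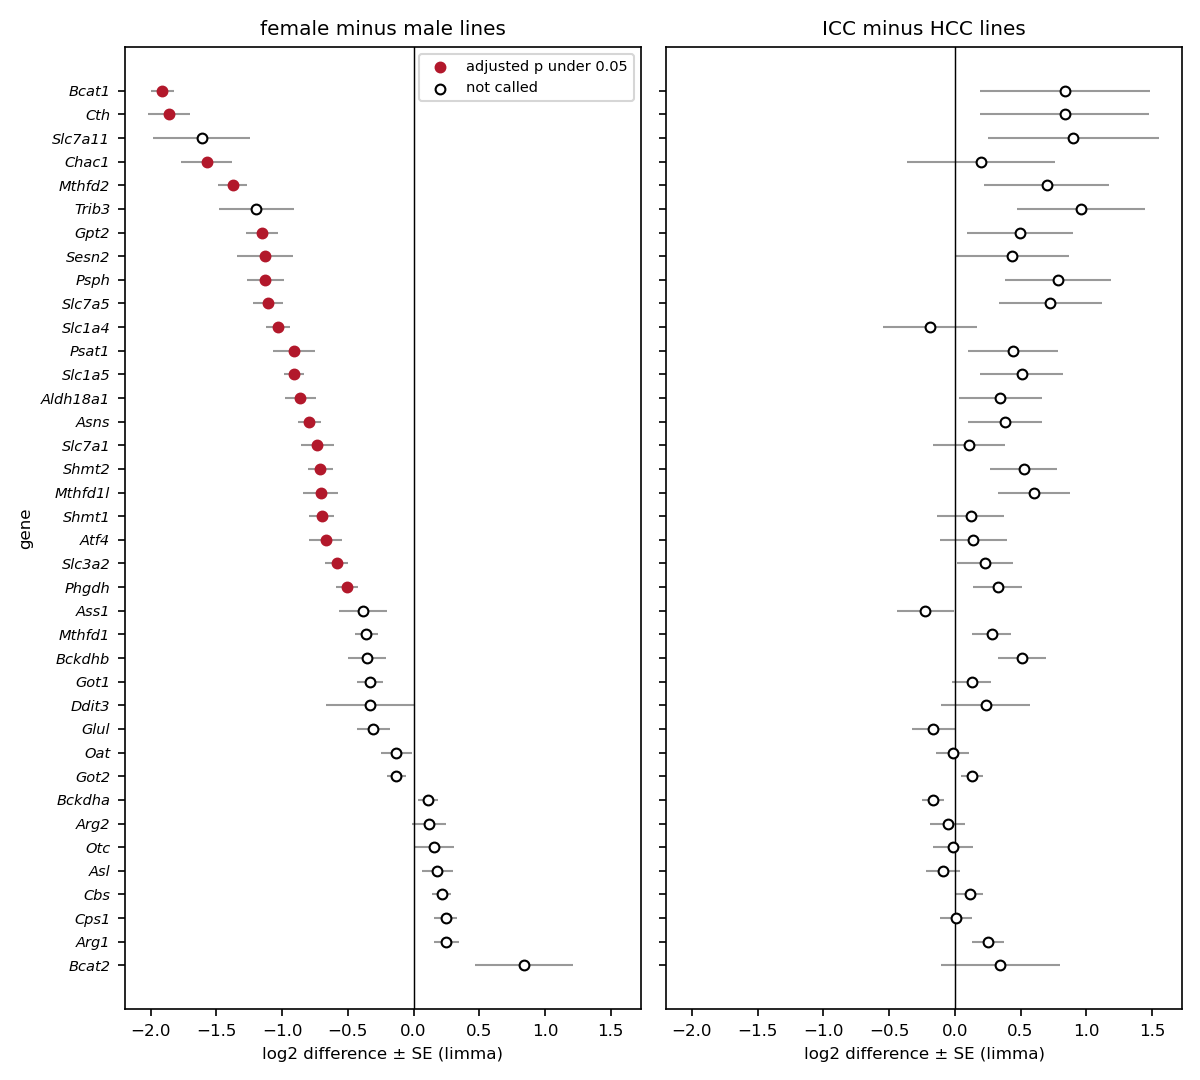
Log2 difference and its standard error from limma for each of the 38 members, female minus male lines on the left and ICC minus HCC lines on the right, ordered by the left panel; filled points passed an adjusted p of 0.05. On the left 20 points are filled, all below 0; on the right none is.

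Results rested on the lines to a differing degree. Without ICC9 limma called 10 of 38 members (0.658% of all genes) and without HCC2.1 it called 13 (1.28%), and leaving out any other line gave 14 to 23. The 10 that stayed called whichever line was left out were Bcat1, Mthfd2, Cth, Slc1a4, Slc1a5, Slc7a5, Gpt2, Asns, Psph and Chac1. With the missing direction as a covariate 13 were called (1.26% of all genes), and the calls lost were those of Atf4, Sesn2, Psat1, Mthfd1l, Slc7a1, Phgdh and Slc3a2. With the lines of a pair as a random block 15 were called (1.51%), and Atf4, Sesn2, Psat1, Mthfd1l and Slc7a1 were lost. With each pair averaged, which leaves 4 values and 1 residual degree of freedom, limma called 0 of 38 (0.0271% of all genes) and 22 members had an unadjusted p under 0.05, against 6.79% of all genes. Within ICC lines alone 20 members were called, 19 lower and Bcat2 higher in the female pair (4.95% of all genes), and within HCC lines alone 4 were called, Bcat1, Mthfd2, Slc1a4 and Slc7a5 (0.410%), all 4 lower. The fit within ICC takes part of its error from the gap between ICC9 and ICC10, which are not independent (weight 0.688). It was not run with the missing direction, so its count cannot be set against that of HCC.

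Among branched-chain genes Bcat1 carried the difference. It measured 9.66 and 9.64 in the male ICC pair, 8.69 and 8.65 in the male HCC pair, 7.65 and 7.55 in the female ICC pair, and 6.88 and 6.92 in the female HCC pair (log2 difference -1.91, SE 0.09, adjusted p = 9.06e-05), a 3.76-fold lower level in female-labelled lines. The pairs did not overlap and lines of a pair differed by at most 0.10. Bcat2, the mitochondrial aminotransferase, went the other way in ICC lines, at 4.86 and 4.96 in the male ICC pair, 5.07 and 5.87 in the male HCC pair, 6.36 and 6.95 in the female ICC pair, and 5.48 and 5.32 in the female HCC pair. It was highest in ICC10 and lowest in ICC2.7, the sexes overlapped, and over all lines it did not pass (log2 difference 0.84, SE 0.37, adjusted p = 0.297). Bckdha had a female-minus-male difference of 0.11 (adjusted p = 0.521) and Bckdhb one of -0.35 (adjusted p = 0.255).

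All 5 genes of serine and glycine metabolism were lower in female-labelled lines. Phgdh, which draws 3-phosphoglycerate into serine synthesis, measured 9.95 and 10.12 in the male ICC pair, 9.84 and 9.75 in the male HCC pair, 9.58 and 9.65 in the female ICC pair, and 9.25 and 9.16 in the female HCC pair (log2 difference -0.51, SE 0.08, adjusted p = 0.0208). The call for Phgdh was lost without ICC9, ICC2.9, HCC2.1 or HCC2.4. Psat1, the next enzyme of the route, measured 10.29 and 10.21 in the male ICC pair, 10.36 and 9.81 in the male HCC pair, 9.49 and 9.75 in the female ICC pair, and 8.89 and 8.90 in the female HCC pair (log2 difference -0.91, SE 0.16, adjusted p = 0.0268). HCC1 was the highest line and ICC10 (9.75) lay just under HCC4 (9.81), and the call was lost without ICC9, ICC2.7, ICC2.9, HCC2.1 or HCC2.4. Psph, which completes the route, measured 9.02 and 9.05 in the male ICC pair, 8.59 and 7.91 in the male HCC pair, 7.87 and 7.94 in the female ICC pair, and 7.12 and 7.13 in the female HCC pair (log2 difference -1.13, SE 0.14, adjusted p = 0.00694). HCC4 (7.91) lay below ICC10 (7.94), so the sexes overlapped by 1 line.

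Serine hydroxymethyltransferases pass a carbon of serine to folate. The mitochondrial Shmt2 measured 12.13 and 12.19 in the male ICC pair, 11.63 and 11.39 in the male HCC pair, 11.36 and 11.29 in the female ICC pair, and 10.98 and 10.87 in the female HCC pair (log2 difference -0.71, SE 0.09, adjusted p = 0.00918). The cytosolic Shmt1 measured 8.81 and 8.50 in the male ICC pair, 8.56 and 8.68 in the male HCC pair, 8.01 and 8.07 in the female ICC pair, and 7.82 and 7.85 in the female HCC pair (log2 difference -0.70, SE 0.09, adjusted p = 0.01). Neither overlapped by sex, and both calls were lost without ICC9. HCC4 was high for Shmt1 but for Shmt2 lay 0.03 above ICC9.

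In the folate cycle the mitochondrial dehydrogenase and cyclohydrolase Mthfd2 was 2.59-fold lower in female-labelled lines. Its levels were 10.65 and 10.51 in the male ICC pair, 10.16 and 9.95 in the male HCC pair, 9.30 and 9.46 in the female ICC pair, and 8.41 and 8.60 in the female HCC pair (log2 difference -1.38, SE 0.11, adjusted p = 0.00139), with all 4 pairs apart. Mthfd1l, which releases formate from mitochondrial folate, measured 10.13 and 10.12 in the male ICC pair, 9.20 and 9.22 in the male HCC pair, 9.22 and 8.99 in the female ICC pair, and 8.80 and 8.83 in the female HCC pair (log2 difference -0.71, SE 0.14, adjusted p = 0.0357). The male ICC pair lay above and the female HCC pair below the other lines, ICC9 overlapped the male HCC pair, and the call was lost without any 1 line other than HCC1 or HCC4. The cytosolic enzyme Mthfd1 spanned 8.97 to 9.68 and did not pass (log2 difference -0.36, SE 0.09, adjusted p = 0.0737).

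Of the genes that turn homocysteine into cysteine, Cth was 3.63-fold lower in female-labelled lines. Cth measured 10.59 and 10.44 in the male ICC pair, 10.14 and 9.39 in the male HCC pair, 8.67 and 8.81 in the female ICC pair, and 7.75 and 7.89 in the female HCC pair (log2 difference -1.86, SE 0.16, adjusted p = 0.00181). Its pairs kept the order described above, and lines of a pair differed by up to 0.75, in the male HCC pair. Cbs, the enzyme before it, lay between 5.41 and 5.75 in all lines and close to the median gene level (log2 difference 0.21, SE 0.07, adjusted p = 0.176).

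Among genes of glutamine, asparagine and transamination, Asns and Gpt2 passed and the others did not. Asns, the asparagine synthetase, measured 11.56 and 11.40 in the male ICC pair, 11.06 and 10.90 in the male HCC pair, 10.60 and 10.54 in the female ICC pair, and 10.28 and 10.33 in the female HCC pair (log2 difference -0.79, SE 0.09, adjusted p = 0.0051). Gpt2, the mitochondrial alanine aminotransferase, measured 9.75 and 9.94 in the male ICC pair, 9.70 and 9.29 in the male HCC pair, 8.76 and 8.92 in the female ICC pair, and 8.13 and 8.26 in the female HCC pair (log2 difference -1.15, SE 0.12, adjusted p = 0.00396). For both genes the 4 pairs were apart. Got2 measured 12.34 and 12.39 in the male ICC pair, 12.13 and 12.25 in the male HCC pair, 12.21 and 12.17 in the female ICC pair, and 12.10 and 12.10 in the female HCC pair (log2 difference -0.13, SE 0.07, adjusted p = 0.396). Glul, the glutamine synthetase, measured 8.27 and 8.33 in the male ICC pair, 8.87 and 8.45 in the male HCC pair, 8.10 and 8.28 in the female ICC pair, and 8.19 and 8.12 in the female HCC pair (log2 difference -0.31, SE 0.13, adjusted p = 0.261). Glul was highest in HCC1, and the sexes overlapped for both Got2 and Glul. Got1, the cytosolic aspartate aminotransferase, ranged from 10.63 to 11.23 without overlap between the sexes and did not pass (log2 difference -0.33, SE 0.10, adjusted p = 0.136).

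Aldh18a1, which makes the common precursor of proline and ornithine, was 1.82-fold lower in female-labelled lines. It measured 10.82 and 10.69 in the male ICC pair, 10.77 and 10.39 in the male HCC pair, 9.98 and 10.15 in the female ICC pair, and 9.52 and 9.57 in the female HCC pair (log2 difference -0.86, SE 0.12, adjusted p = 0.0106), and its call was lost without ICC9. HCC1 lay between ICC2.7 and ICC2.9. Oat, which interconverts ornithine and the proline precursor, ranged from 9.19 to 9.70 and did not pass (log2 difference -0.13, SE 0.12, adjusted p = 0.634).

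None of the 6 urea cycle and arginase genes passed in any of the comparisons, and 4 of the 6 (Arg1, Arg2, Otc and Cps1) lay below the median gene level. By sex 2 of the 6 had an unadjusted p under 0.05. Ass1, which joins citrulline to aspartate, had the widest range of them at 6.53 and 6.01 in the male ICC pair, 6.73 and 6.92 in the male HCC pair, 6.09 and 6.34 in the female ICC pair, and 5.93 and 6.29 in the female HCC pair (log2 difference -0.39, SE 0.18, adjusted p = 0.331). Arg1, the arginase of hepatocytes, measured 5.48 and 5.42 in the male ICC pair, 5.22 and 5.10 in the male HCC pair, 5.68 and 5.64 in the female ICC pair, and 5.62 and 5.27 in the female HCC pair (log2 difference 0.25, SE 0.09, adjusted p = 0.231). Cps1, the mitochondrial entry enzyme of the cycle, measured 4.79 and 5.02 in the male ICC pair, 4.91 and 4.79 in the male HCC pair, 5.11 and 5.10 in the female ICC pair, and 5.06 and 5.22 in the female HCC pair (log2 difference 0.24, SE 0.09, adjusted p = 0.197). Its female-labelled lines lay above its male-labelled lines, by a margin of 0.04 between HCC2.1 and ICC2.9. Asl, the next enzyme after Ass1, ranged from 8.53 to 9.03, the arginase Arg2 from 4.80 to 5.35 and Otc, the X-linked gene for the enzyme that makes citrulline, from 3.24 to 3.89. For the 4 genes below the median gene level the arrays' background was not measured here.

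Of 6 amino acid transporters 5 were lower in female-labelled lines. Slc7a5 measured 12.14 and 11.84 in the male ICC pair, 11.53 and 11.34 in the male HCC pair, 10.98 and 11.13 in the female ICC pair, and 10.18 and 10.13 in the female HCC pair (log2 difference -1.11, SE 0.11, adjusted p = 0.00382). Slc3a2, the heavy chain that Slc7a5 and Slc7a11 need at the membrane, measured 11.86 and 11.72 in the male ICC pair, 11.74 and 11.49 in the male HCC pair, 11.23 and 11.29 in the female ICC pair, and 11.00 and 10.95 in the female HCC pair (log2 difference -0.58, SE 0.09, adjusted p = 0.0137). The pairs of Slc7a5 kept apart, while for Slc3a2 HCC1 reached the level of the male ICC pair. The call for Slc3a2 was lost without ICC9, HCC2.1 or HCC2.4.

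Slc1a5 measured 11.02 and 10.86 in the male ICC pair, 10.44 and 10.36 in the male HCC pair, 10.01 and 9.99 in the female ICC pair, and 9.55 and 9.50 in the female HCC pair (log2 difference -0.91, SE 0.07, adjusted p = 0.00163), with the 4 pairs apart. Slc1a4, a related carrier of alanine, serine and cysteine, measured 10.10 and 9.85 in the male ICC pair, 10.25 and 10.29 in the male HCC pair, 9.01 and 9.09 in the female ICC pair, and 9.15 and 9.11 in the female HCC pair (log2 difference -1.03, SE 0.09, adjusted p = 0.00212). Slc1a4 was highest in the male HCC pair, and its female-labelled lines lay within 0.14 of each other. Slc7a1, a carrier of arginine and other cationic amino acids, measured 9.69 and 9.47 in the male ICC pair, 9.67 and 9.13 in the male HCC pair, 8.78 and 8.77 in the female ICC pair, and 8.79 and 8.69 in the female HCC pair (log2 difference -0.73, SE 0.13, adjusted p = 0.0243). HCC4 was the lowest male-labelled line for it, and the call was lost without any 1 line other than HCC1 or HCC4. Slc7a11 measured 9.30 and 9.89 in the male ICC pair, 9.74 and 7.85 in the male HCC pair, 7.95 and 8.22 in the female ICC pair, and 6.84 and 7.32 in the female HCC pair (log2 difference -1.61, SE 0.37, adjusted p = 0.0652), so its larger difference came with a larger spread. HCC1 (9.74) and HCC4 (7.85) of the male HCC pair differed by 1.89, and HCC4 lay below both lines of the female ICC pair.

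**Figure D3:**
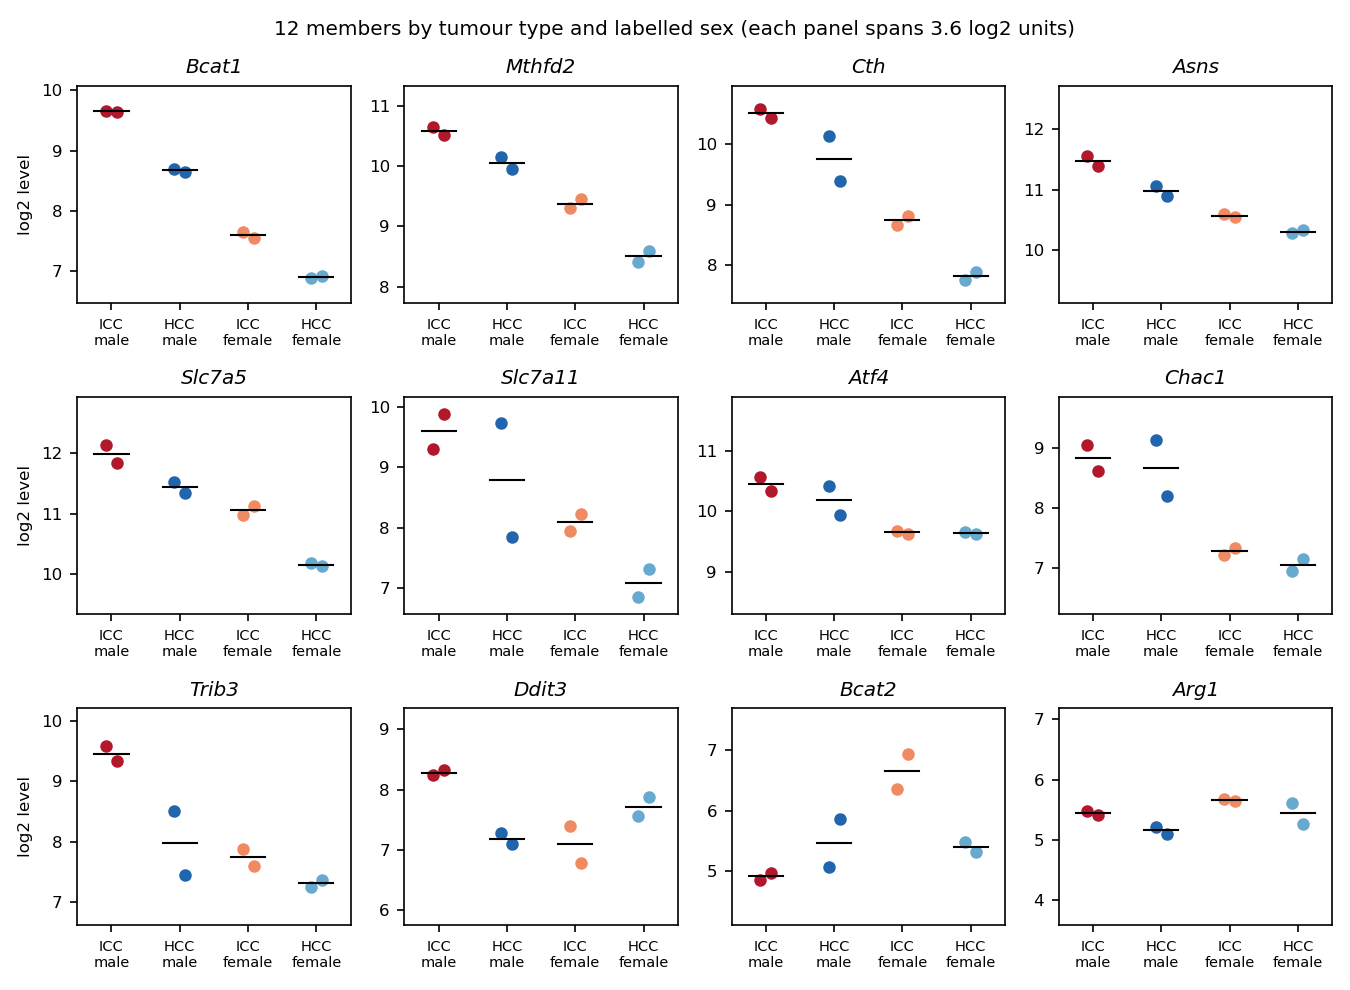
Log2 level of 12 members in each line (points, 2 per pair; bars are pair means) by tumour type and labelled sex; every panel spans the same 3.6 log2 units. Bcat1, Mthfd2, Cth, Asns and Slc7a5 step down from left to right, Ddit3 and Bcat2 do not, and Arg1 stays within 0.58 units.

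Atf4 itself and 2 of the 4 genes listed as its response, Chac1 and Sesn2, were lower in female-labelled lines. Atf4 mRNA measured 10.57 and 10.34 in the male ICC pair, 10.42 and 9.94 in the male HCC pair, 9.68 and 9.62 in the female ICC pair, and 9.66 and 9.63 in the female HCC pair (log2 difference -0.67, SE 0.13, adjusted p = 0.0326). Its female-labelled lines lay within 0.06 of each other in both types, and HCC4 was the lowest male-labelled line. The call was lost without any 1 line other than HCC4, with the random block (adjusted p = 0.071) and with the missing direction as a covariate (adjusted p = 0.0832). Chac1, which degrades glutathione, measured 9.05 and 8.62 in the male ICC pair, 9.12 and 8.19 in the male HCC pair, 7.22 and 7.34 in the female ICC pair, and 6.96 and 7.16 in the female HCC pair (log2 difference -1.57, SE 0.20, adjusted p = 0.00758). HCC1 was its highest line, and the sexes lay 0.85 apart at their nearest lines.

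Sesn2, which restrains mTORC1 when leucine is short, measured 9.95 and 10.16 in the male ICC pair, 9.40 and 8.91 in the male HCC pair, 8.60 and 8.32 in the female ICC pair, and 8.33 and 8.65 in the female HCC pair (log2 difference -1.13, SE 0.21, adjusted p = 0.0345), and its call was lost without ICC9, ICC10, ICC2.7, ICC2.9, HCC1 or HCC2.1, with the random block (adjusted p = 0.0604) and with the missing direction (adjusted p = 0.0758). Trib3, a pseudokinase that feeds back on ATF4, measured 9.59 and 9.33 in the male ICC pair, 8.51 and 7.44 in the male HCC pair, 7.88 and 7.60 in the female ICC pair, and 7.24 and 7.37 in the female HCC pair (log2 difference -1.20, SE 0.28, adjusted p = 0.0693). HCC4 lay below both lines of the female ICC pair, so Trib3 overlapped. Ddit3, which encodes the stress factor CHOP, measured 8.25 and 8.32 in the male ICC pair, 7.28 and 7.10 in the male HCC pair, 7.40 and 6.79 in the female ICC pair, and 7.56 and 7.88 in the female HCC pair (log2 difference -0.33, SE 0.34, adjusted p = 0.68). Ddit3 was high in the male ICC pair and next highest in the female HCC pair, the lines that were lowest for most members.

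The interaction of type and sex asks whether the female-minus-male difference is unequal in ICC and HCC, and its log2 difference is the one in ICC minus the one in HCC. The same contrast sets ICC2.7, ICC2.9, HCC2.1 and HCC2.4, whose names begin with 2, against the others, so both readings cannot be told apart. Limma called 0 of 38 members and 0% of all genes, and 5 members had an unadjusted p under 0.05 (20.1% of all genes). The smallest p belonged to Ddit3 (log2 difference -1.72, SE 0.29, adjusted p = 0.113), which was lower by 1.19 in the female ICC pair than in the male ICC pair but higher by 0.53 in the female HCC pair than in the male HCC pair. Ddit3 was called with the missing direction as a covariate (adjusted p = 0.0185) and without ICC9 (adjusted p = 0.0241). It was the 1 member called in each of these fits, which called 255 and 238 of all 22180 genes. Bcat2 came next (log2 difference 1.81, SE 0.40, adjusted p = 0.115), followed by Mthfd1l (log2 difference -0.62, SE 0.16, adjusted p = 0.121).

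Of 112 measured genes of the same pathways outside the list, limma called 8 lower and 1 higher in female-labelled lines, where 2.94% of all genes were called, and the median difference was -0.06 log2 units. Cytosolic aminoacyl-tRNA synthetases and the tRNA exporter Xpot gave 4 of 12, all lower: Yars at -0.72 (SE 0.07, adjusted p = 0.00382), Iars at -0.51 (SE 0.07, adjusted p = 0.0135), Nars at -0.49 (SE 0.09, adjusted p = 0.0345) and, outside the 3 with the smallest p, Lars at -0.66 (SE 0.13, adjusted p = 0.0357). All 12 had a negative difference, and their mean lay between 10.33 and 10.55 in female-labelled and between 10.61 and 11.15 in male-labelled lines. In the folate list 2 of 12 were lower, the mitochondrial 10-formyltetrahydrofolate dehydrogenase Aldh1l2 at -1.30 (SE 0.22, adjusted p = 0.0239) and the mitochondrial folate carrier Slc25a32 at -0.59 (SE 0.11, adjusted p = 0.0357). In the wider ATF4 list 2 of 17 were lower, Herpud1, of endoplasmic reticulum protein disposal, at -0.52 (SE 0.07, adjusted p = 0.0102) and the ATF4 relative Atf5 at -0.81 (SE 0.12, adjusted p = 0.0135).

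Among 17 other transporters 1 was higher in female-labelled lines, Slc43a2, a carrier of large neutral amino acids, at 0.43 (SE 0.08, adjusted p = 0.036). No gene passed by sex among 9 of endoplasmic reticulum stress, 10 of the methionine cycle, 15 of branched-chain breakdown, 6 of serine and glycine, 5 of glutamine and asparagine, 5 of proline and 4 of the urea cycle. Those with the smallest p in these lists were Edem1 (0.08), Mat1a (-0.11), Dld (-0.40), Srr (-0.31), Asrgl1 (-0.60), Pycrl (-0.30) and Slc25a12 (-0.33), as log2 differences. Between ICC and HCC lines 0 of the 112 passed, against 0.261% of all genes, and 19 had an unadjusted p under 0.05, against 14.1% of all genes. The smallest p per list belonged to Slc7a6 (-0.53), Eprs (0.58), Nupr1 (0.37), Edem1 (0.27), Aldh1l2 (1.70), Sptlc1 (-0.27), Pccb (0.31), Aldh4a1 (0.22), Slc25a13 (0.31), Bhmt2 (0.21) and Gpt (-0.13).

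By pathway mean, 7 of the 9 member lists put all 4 male-labelled lines above all 4 female-labelled lines. The difference, female minus male, was -0.996 log2 units for transport, -0.98 for the ATF4 response, -0.82 for transsulfuration, -0.81 for folate, -0.79 for serine and glycine, -0.54 for glutamine, asparagine and transamination and -0.50 for proline and ornithine. The branched-chain mean differed by -0.33 with overlap and the urea cycle mean by 0.09 with overlap. Transsulfuration and proline and ornithine hold 2 measured genes each, so 1 gene can carry the mean. In the former Cth differed by -1.86 and Cbs by 0.21, and in the latter Aldh18a1 by -0.86 and Oat by -0.13. In the ATF4 list the mean was 9.48 in ICC2.7, 9.35 in ICC2.9, 8.95 in HCC1, 8.32 in HCC4, 8.16 in ICC9, 7.93 in ICC10, 7.95 in HCC2.1 and 8.14 in HCC2.4. ICC2.7 and ICC2.9 lay highest, HCC1 next, and HCC4 lay 0.16 above ICC9. No test was run on list means.

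**Figure D4:**
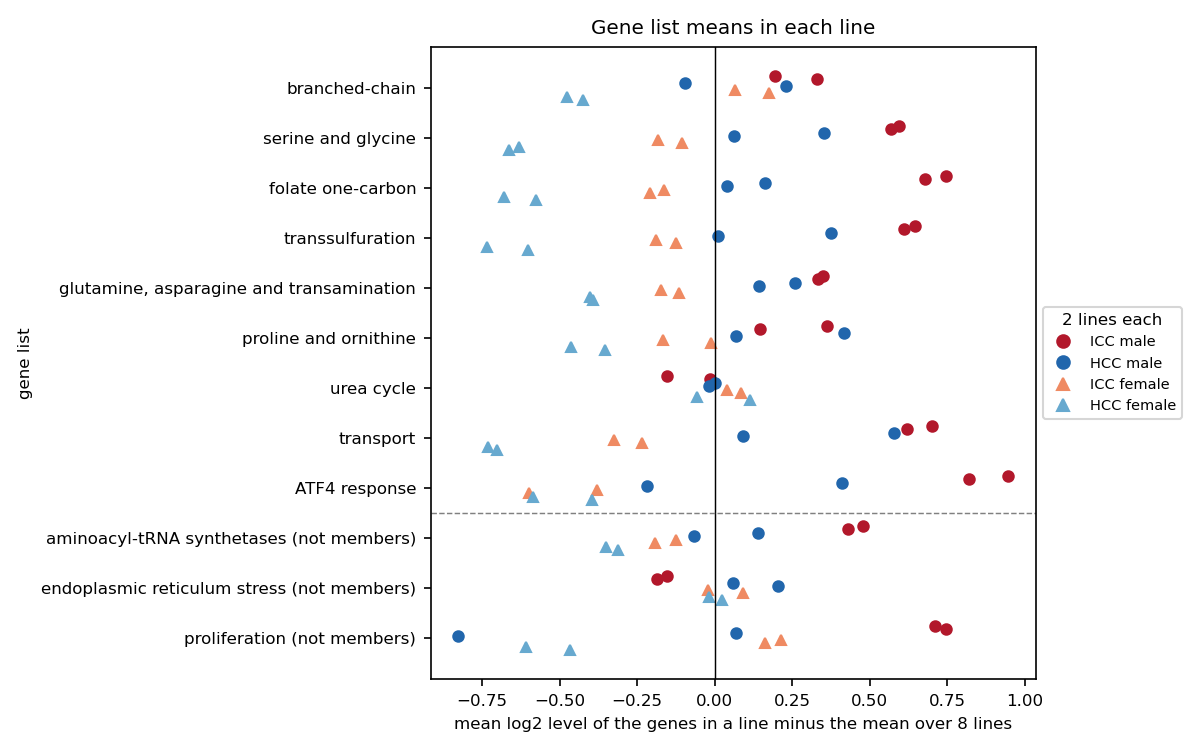
Mean log2 level of each gene list in each line, as the difference from the mean over the 8 lines (horizontal axis), for the 9 member lists above the dashed line and 3 other lists below it; circles are male-labelled and triangles female-labelled lines. Circles lie to the right of all triangles in 7 member lists and in the aminoacyl-tRNA synthetases, and mix with them in the urea cycle, endoplasmic reticulum stress and proliferation lists.

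Among markers of cell identity Krt19 and Acta2 were called by sex, where 2.94% of all genes were. Of 6 measured bile duct markers 5 had a positive female-minus-male difference and 1 was called, the keratin Krt19 at 2.19 (SE 0.24, adjusted p = 0.00483). The bile duct list mean lay between 6.47 and 6.69 in female-labelled and between 5.84 and 6.14 in male-labelled lines. Krt19 weighs heavily in that mean, since the median difference over the 6 markers was 0.265. Epcam, Cftr and Muc1 lay below the median gene level, and Krt7 spanned 0.20 over the 8 lines. Of 7 fibroblast and stellate markers 6 had a negative difference and 1 was called, Acta2 at -0.52 (SE 0.11, adjusted p = 0.046), with list means between 5.58 and 5.78 in female-labelled and between 5.73 and 6.75 in male-labelled lines. The male ICC pair lay above all other lines for Pdgfrb (10.55 and 9.89, others up to 8.41) and Col1a1 (9.82 and 8.19, others up to 7.18). Des was instead highest in HCC1, Col1a2 in HCC4 and Dcn in ICC10. All 13 proliferation markers had a negative difference, 0 were called, and the list means overlapped (8.12 to 8.94 in female-labelled and 7.90 to 9.47 in male-labelled lines), with HCC4 lowest of all. Of 11 hepatocyte markers 0 were called, 5 had a positive and 6 a negative difference, 2 had an unadjusted p under 0.05, and the list means overlapped (4.81 to 5.03 in female-labelled and 4.84 to 4.94 in male-labelled lines). Hnf4a measured 7.26 and 7.06 in the female HCC pair, against 5.32 to 5.92 in the other lines. Apoa2, the other hepatocyte marker above the median gene level, lay between 6.34 and 6.51 in all lines. By type 0 of the 11 hepatocyte and 0 of the 6 bile duct markers were called, where 0.261% of all genes were. The hepatocyte list mean was 4.85 in ICC and 4.97 in HCC lines, and the bile duct list mean was 6.37 and 6.24. Leukocyte list means were 4.87 to 5.18 in female-labelled and 4.55 to 5.34 in male-labelled lines, and endothelial ones 4.75 to 4.91 and 4.71 to 4.91. The part of these markers in the differences of the members was not tested.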

How the data were processed

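RNA (100 ng) of each line was labelled with the Affymetrix WT PLUS kit, 1 array per line. The authors deposited log2 values, made by RMA in the oligo package per the submitters' processing notes; the sources used here give no versions. Of 39993 probe sets 23521 name exactly 1 gene, 1814 several and 14658 none here. Each gene took its brightest probe set by mean over the 8 lines, giving 22180 genes without a filter on dim ones.

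Differences were tested with limma 3.58.1 in R 4.3.3 (lmFit, eBayes, two-sided, Benjamini-Hochberg over all genes, adjusted p under 0.05), ICC against HCC without covariate, sex with type, and their interaction. An SE is limma's moderated standard error. The fit was tested on simulated data with independent lines. That simulation held neither correlated pairs nor a missing direction, so it cannot show how the fit behaves with them. Promoter windows are RefSeq's (GRCm38.p6). Python 3.11.15 made tables and figures.

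Members, lists and tests were chosen with earlier results of these data known. Values in every line are given for members that passed a test, had the smallest p or widest range in their pathway, or were named beforehand (Phgdh, Asns, Bcat1, Arg1, Cps1, Slc7a11, Atf4, Ddit3 and Trib3); other pathway genes are named where they passed, up to 3 a list, or as the smallest p of a list. Lars lies outside that rule, and the genes used to check the labels for sex were added after the data were seen.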

Additional observations from a re-analysis of the deposited data

Results flagged for a closer look

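In 3 cases 1 line lay far from the other 3 of its group by Dixon's criterion, which chance meets in about 1 in 20 groups. The 38 members were examined by type and by sex, and over that many groups the same rate would give more than 3 cases. Arg1 in HCC2.4 measured 5.27, with the other female-labelled lines at 5.62 to 5.68. Arg2 in ICC2.7 measured 4.80, with the other ICC lines at 5.25 to 5.32. Trib3 in HCC1 measured 8.51, with the other HCC lines at 7.24 to 7.44.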

How the results depend on the processing

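For ICC against HCC limma called 0 of 38 members over all lines and 1 with array weights, whose estimation stopped before it converged. The count was 7 with sex as a covariate, 1 with sex and the missing direction as covariates, 7 in the female-labelled and 1 in the male-labelled lines alone, and 0 to 0 over the fits that leave out each line in turn. For female against male it called 20, with 13 under the missing direction as a covariate, 0 with pairs averaged, 4 in the HCC lines alone and 10 to 23 over the leave-one-out fits. For the interaction it called 0, with 1 under the missing direction and 0 to 1 over the leave-one-out fits. Over all genes the type comparison called 58. It called 103 among genes above the median level, 2278 with array weights, 12 with the missing direction, 428 with sex, 119 with both, 696 and 200 in female-labelled and male-labelled lines, 6 with the random block, 0 with pairs averaged (1170 at an unadjusted p under 0.05) and 2 to 109 without 1 line. The sex comparison called 653, 858 among genes above the median level, 2036 with array weights and 280 with the missing direction. It called 334 with the random block, 6 with pairs averaged, 1098 in ICC lines, 91 in HCC lines and 146 to 917 without 1 line. The interaction called 0, 255 with the missing direction and 0 to 238 without 1 line. Pathway means kept within 1 SD under quantile normalization or median centring. The fits with pairs averaged or within 1 type for female against male were chosen after seeing the data. No paired analysis was possible because the replicate numbers only follow the order of the samples. Signal over background was not assessed, which limits the 6 members below the median gene level.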

Other observations

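Of the other pathway genes Slc38a4, Slc7a3, Slc7a8, Aldh1l2 and Atf3 had a wider range over the 8 lines than any member. Slc38a4, a carrier of neutral amino acids made in liver and placenta, measured 11.36 and 10.97 in the male ICC pair, 10.71 and 11.21 in the male HCC pair, 6.15 and 3.96 in the female ICC pair, and 10.66 and 10.70 in the female HCC pair (interaction log2 difference -5.83, SE 0.85, adjusted p = 0.113). It was low in the female ICC pair alone, and ICC9 lay above ICC10 by 2.19. Atf3, a stress factor induced by ATF4, measured 8.82 and 8.12 in the male ICC pair, 10.97 and 11.04 in the male HCC pair, 9.72 and 11.21 in the female ICC pair, and 9.16 and 8.65 in the female HCC pair (interaction log2 difference 4.09, SE 0.65, adjusted p = 0.113). It was highest in ICC10, and ICC2.7, ICC2.9, HCC2.1 and HCC2.4 lay below the other 4 lines. Neither passed limma's test of the interaction over all 8 lines. Slc7a3, a further cationic amino acid carrier chosen for mention after its values were seen, measured 9.11 and 9.84 in the male ICC pair, 4.79 and 4.17 in the male HCC pair, 5.99 and 4.21 in the female ICC pair, and 4.89 and 5.33 in the female HCC pair, with both lines of the male ICC pair above all others. Slc7a8, a carrier of neutral amino acids also chosen after its values were seen, measured 6.78 and 6.83 in the male ICC pair, 9.81 and 9.46 in the male HCC pair, 6.48 and 7.48 in the female ICC pair, and 7.28 and 7.02 in the female HCC pair, with both lines of the male HCC pair above all others. Aldh1l2 measured 10.07 and 10.27 in the male ICC pair, 8.14 and 7.79 in the male HCC pair, 8.52 and 8.20 in the female ICC pair, and 6.95 and 7.38 in the female HCC pair, with the male ICC pair highest and the female HCC pair lowest.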
